A study of Rattus norvegicus with 22 samples.

Results

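Gene expression in rat embryos exposed to 2 teratogenic drugs was compared at gestational day 12. The samples were 4 of the 22 arrays of the study: whole embryos of Wistar dams given EMD 82571 at 50 mg/kg/day (EMD50) or at 150 mg/kg/day (EMD150), and a pair of whole embryo samples from dams given retinoic acid at 12 mg/kg/day, labelled RA5 and RA56. A further array, whole embryo of day 12 from a vehicle control, served as the reference. It was not in the comparison of the drugs. Among the fits it entered only the alternatives named as holding it or as holding 10 or 22 arrays. The correlations between genes, their range filter and the level percentile used all 5 embryo arrays, the control among them. The arrays were chosen by tissue, day and drug alone, and genes are described where both arrays of one drug lay outside both arrays of the other. Dosing began on gestational day 6. The protocol names days 6 to 11 and 6 to 17 and the design text days 6 to 17, which also calls the drug MSC1096199. The sources used here do not explain the codes RA5 and RA56, and they name neither the number of embryos behind an array nor any sharing of dams or pools. The p-values below therefore measure only the spread between these arrays. The EMD 82571 group holds 1 array at each dose, so the difference between doses counts as spread within that drug.

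Retinoic acid is the active form of vitamin A. It binds nuclear receptors that switch on target genes, and an excess of it during organ formation causes malformations of the head, limbs and heart. EMD 82571 belongs to the calcium sensitisers, compounds that raise the response of heart muscle to calcium. In rodents of this age the visceral yolk sac does work that the liver later takes over: its endoderm takes up maternal nutrients and secretes alpha-fetoprotein, apolipoproteins, transthyretin and retinol-binding protein, which carry lipid and vitamin A to the embryo. The first fetal liver cells begin to express many of the same genes.

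Values are log2 expression values of single probe sets, so a difference of 1 is 2-fold. The array medians ran from 8.11 to 8.16, and the array SDs from 1.658 in RA5 to 1.832 in the control. EMD50 and EMD150 correlated across probe sets with r = 0.996 and RA5 and RA56 with r = 0.980, a description across genes. The median absolute difference within a drug was 0.085 between the EMD 82571 doses and 0.245 between the retinoic acid arrays. The embryo label held: the embryonic globin genes Hbe1 and Hbz read 14.43 to 14.75 and 14.16 to 14.72 in the 5 arrays, against 7.62 and 7.01 in the maternal liver control of that day.

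Most of the large differences between the drugs ran one way. Both retinoic acid arrays lay above both EMD 82571 arrays by a gap of at least 1, the gap being the distance between the nearest arrays of the drugs, at 51 probe sets (0.321% of 15866). The reverse was seen at 2 (0.0126%). At any gap the directions were balanced, with 2661 probe sets (16.8%) higher with retinoic acid and 3086 (19.5%) higher with EMD 82571. Of the 51 probe sets, 43 carried 1 gene symbol, for 41 genes, and secreted proteins of the yolk sac and liver led them. No probe set passed limma's test with Benjamini-Hochberg adjustment (0 called), the smallest adjusted p being 0.0647, while 1111 (7.00%) had an unadjusted p under 0.05. An exact permutation test of 2 arrays against 2 cannot go below a two-sided p of 0.333.

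That count of 0 changed with the arrays that lent their spread. It was 222 (1.40%) in a fit of the 10 arrays of day 12, which adds maternal liver, and 57 (0.359%) in a fit of all 22 arrays. These held 49 and 35 of the 53 probe sets with a gap of at least 1. Both fits take part of their spread from other tissues, where a gene may vary less, so their calls do not rest on the embryo spread alone. Without 1 array, limma takes the spread from the remaining pair alone and called 63 without EMD50, 70 without EMD150, 4424 without RA5 and 1917 without RA56. The count of gaps of at least 1 was then 63, 89, 204 and 144. Just inside the limit of 1 were Hnrnpa3 (a gap of 1.0), Serpina1 (1.02) and Syncrip-ps2 (1.02), and just outside were Apom and Sparc (0.99 each).

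**Figure D1:**
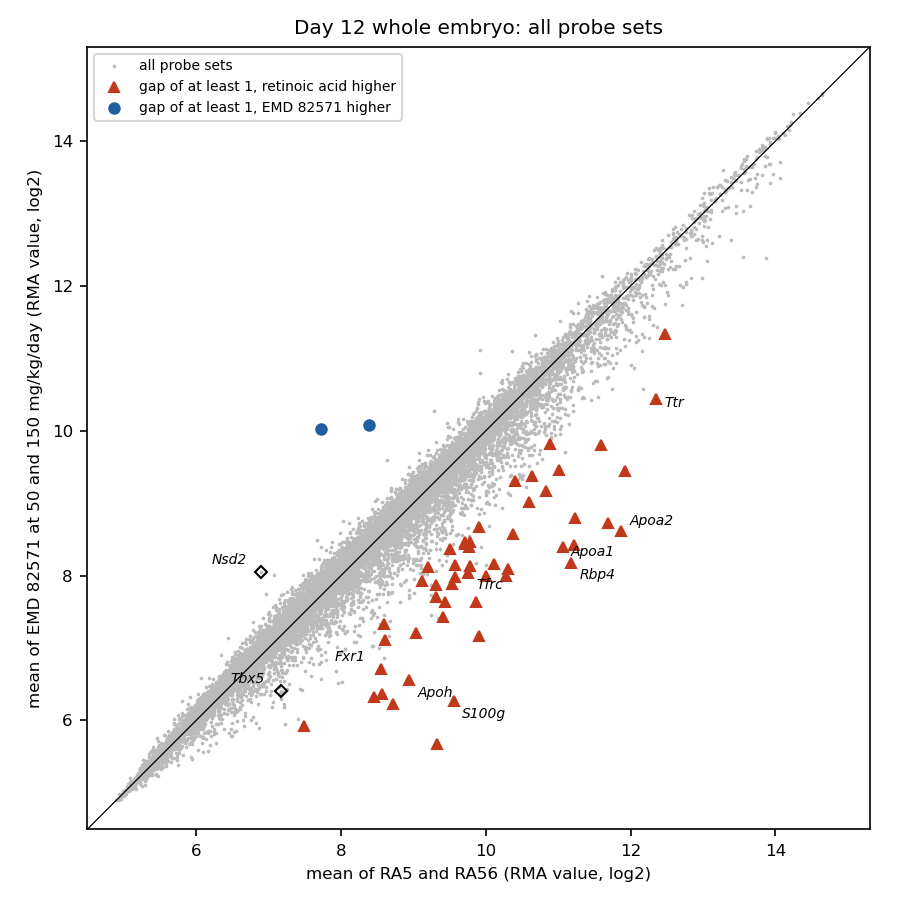
Each point is a probe set on the day 12 whole embryo arrays, placed by its mean log2 value in RA5 and RA56 (x axis) and in EMD50 and EMD150 (y axis), with the line of equality. The 51 probe sets in triangles, higher with retinoic acid by a gap of at least 1, lie below the line and the 2 in circles above it, and open diamonds mark Tbx5 and Nsd2, whose gaps were 0.68 and 0.95.

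Promoters are printed for 3 genes on which the results below turn: Rbp4, which carries vitamin A in the blood, Fgg, a fibrinogen chain, and Tbx5, a regulator of heart and forelimb. Each sequence is the window from 250 bases before to 50 bases after the gene's start in the RefSeq table of assembly GRCr8, written on the gene's own strand. Capitals mark matches to searched motifs: the TATA box TATAAA, the element AGGTCA bound by retinoic acid receptors and their relatives, and the GATA factor motif TGATAA, which reads TTATCA where it lies on the other strand. Rbp4 is at chr1:245313502-245313801 on the minus strand, with TATAAA starting 50 bases before the gene's start. Fgg is at chr2:170652833-170653132 on the plus strand, with TATAAA 50 and AGGTCA 25 bases before it. Tbx5 is at chr12:42395310-42395609 on the minus strand, with TGATAA on the other strand 225 bases before the start.
Rbp4: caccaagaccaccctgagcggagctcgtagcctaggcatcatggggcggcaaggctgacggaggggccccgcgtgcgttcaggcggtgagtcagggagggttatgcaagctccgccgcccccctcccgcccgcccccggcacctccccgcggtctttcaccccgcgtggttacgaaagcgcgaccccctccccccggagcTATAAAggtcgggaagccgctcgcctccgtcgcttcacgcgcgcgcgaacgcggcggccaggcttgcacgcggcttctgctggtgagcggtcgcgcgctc
Fgg: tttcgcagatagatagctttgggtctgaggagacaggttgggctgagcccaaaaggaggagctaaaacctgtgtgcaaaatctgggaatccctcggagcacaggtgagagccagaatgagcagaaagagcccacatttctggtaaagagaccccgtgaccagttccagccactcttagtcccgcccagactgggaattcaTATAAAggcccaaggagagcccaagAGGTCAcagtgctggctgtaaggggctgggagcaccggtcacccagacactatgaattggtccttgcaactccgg
Tbx5: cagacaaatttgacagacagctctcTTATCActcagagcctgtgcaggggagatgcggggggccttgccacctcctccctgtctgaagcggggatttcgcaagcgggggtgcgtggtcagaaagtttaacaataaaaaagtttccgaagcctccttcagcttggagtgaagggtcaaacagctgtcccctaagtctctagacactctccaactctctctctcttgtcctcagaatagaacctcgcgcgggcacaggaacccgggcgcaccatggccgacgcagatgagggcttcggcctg

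The share of windows with each motif was set beside that of all windows, with no test. AGGTCA was found on either strand in 16.2% of all 33469 windows of 27457 genes, in 13.6% of the 44 windows (35 genes) of genes higher with retinoic acid by a gap of at least 1, and in 14.3% of the 28 windows (25 genes) of the yolk sac list described below. TATAAA was found in 14.2%, 25.0% (11 windows) and 17.9% (5 windows) in the same order, TGATAA in 9.03%, 9.09% and 7.14%, and the other GATA motif AGATAA in 11.6%, 6.82% and 21.4%. The direct repeats of AGGTCA known as DR5, DR2 and DR1, which contain that element, and the HNF1 motif were found in 0 windows of both sets, and in 3, 4, 18 and 1 of all windows. A match is a description of letters and not of a bound site.

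Carriers of vitamin A were among the most different genes. Rbp4, retinol-binding protein, read 8.58 in EMD50 and 7.77 in EMD150, against 11.71 in RA5, 10.64 in RA56 and 11.25 in the control. The groups were apart, the control lay among the retinoic acid values, and the higher dose of EMD 82571 had the lowest value. The retinoic acid mean was 3.0 ± 0.41 (SE) above the EMD 82571 mean, 8.0-fold, with limma's adjusted p = 0.180. In limma's fit of the 10 arrays of day 12 the adjusted p was 0.00896. That fit takes part of its spread from maternal liver, where Rbp4 was nearly constant (13.37 to 13.50), so its p is no measure of the embryo spread alone. Ttr, transthyretin, which binds Rbp4 in the blood, read 10.70 and 10.18 in EMD50 and EMD150, 12.82 and 11.89 in RA5 and RA56, and 12.02 in the control. Its groups were apart as well, with means that differed by 1.92 ± 0.34 (adjusted p = 0.217).

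Apolipoproteins, the protein part of the particles that carry lipid, showed the same order. Apoa1 read 8.91 and 7.86 in EMD50 and EMD150, 11.78 and 10.35 in RA5 and RA56, and 11.08 in the control, a difference of 2.68 ± 0.53 (adjusted p = 0.245). Apoa2 had the largest difference of the genes in the yolk sac list, 3.26 ± 0.47 (9.58-fold, adjusted p = 0.181), from 9.03 and 8.20 with EMD 82571, 12.52 and 11.22 with retinoic acid and 11.04 in the control. For Apob, the scaffold of the large particles, the values were 8.31, 8.53, 11.75 and 10.69 in the same order and 9.93 in the control. Here EMD150 did not have the lower value of the doses, and the difference was 2.80 ± 0.34 (adjusted p = 0.174). Another Apob probe set gave -0.17 for EMD 82571 minus retinoic acid. Apoa4 read 8.14 and 7.85 against 11.06 and 9.50, with 10.30 in the control. Apom and Apoe differed by 1.93 ± 0.42 and 1.79 ± 0.30, although another Apoe probe set lay 0.08 higher with EMD 82571.

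Further secreted and lysosomal proteins lay with them. Fgg read 7.56 and 6.78 in EMD50 and EMD150, 10.44 and 9.37 in RA5 and RA56, and 9.14 in the control, and the fibrinogen chain gene Fga read 6.39 and 6.28, 8.71 and 8.20, and 7.59. Both controls lay between the drugs. The differences were 2.74 ± 0.40 (adjusted p = 0.186) and 2.12 ± 0.19 (0.104). S100g, a calcium-binding protein of absorbing epithelia, read 6.28 and 6.26 with EMD 82571, 10.79 in RA5, 8.33 in RA56 and 7.64 in the control. Its retinoic acid arrays lay far apart, and the difference of 3.30 ± 0.71 (adjusted p = 0.287) had a large error. Ctsl, the lysosomal protease cathepsin L, read 9.55 and 9.34, 12.30 and 11.54, and 11.40. Selenop, which carries selenium, read 9.06 and 8.53, 11.65 and 10.81, and 10.42, but another probe set lay 0.03 higher with EMD 82571. Spp2 read 8.32 and 7.87, 10.96 and 9.66, and 9.94. Afp, alpha-fetoprotein, read 12.73 and 12.03, 14.23 and 13.52, and 13.78, a difference of 1.49 ± 0.32.

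Of the 40 genes in the list of visceral yolk sac genes 33 were measured. Both retinoic acid arrays lay above both EMD 82571 arrays for 24 of the 33 (72.7%), against 1744 of all 10411 genes (16.8%), and the reverse was seen for 0, against 2015 (19.4%). A gap of at least 1 was found for 12, against 35 of all genes (0.336%). The median of EMD 82571 minus retinoic acid was -1.076 in the list and 0.038 over all genes. Limma called 0 of the 33 and gave 21 an unadjusted p under 0.05, against 675 of all genes (6.48%). Hnf4a, Foxa2 and Sox17, transcription factors of endoderm, had overlapping drug groups. These 3 were picked after their values were seen. The uptake receptor cubilin, Cubn, read 7.32 and 7.10 in EMD50 and EMD150, 9.52 and 8.55 in RA5 and RA56, and 8.48 in the control, a difference of 1.83 ± 0.32 (adjusted p = 0.206). Its partner Amn overlapped at the probe set in the list, at 7.56 in both EMD 82571 arrays, 8.07 in RA5 and 7.56 in RA56, whereas its other probe set was apart, at 6.58 and 6.45, 8.71 and 7.20 (1.44 ± 0.45, adjusted p = 0.478). The list was chosen with earlier results of these samples known, so its direction is a description.

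**Figure D2:**
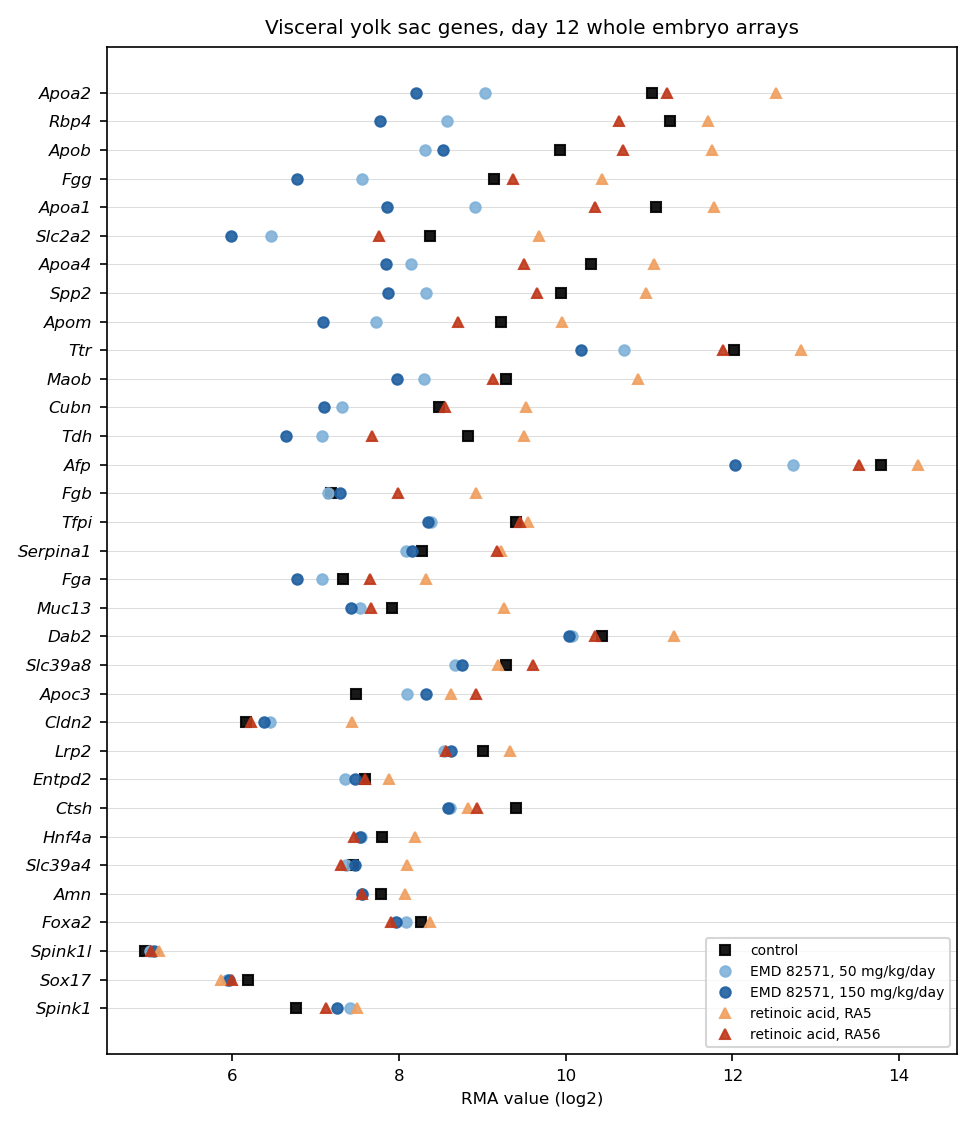
Log2 values of the 33 measured yolk sac list genes, 1 probe set each (the one with the highest mean), in the control (square), EMD50 and EMD150 (circles) and RA5 and RA56 (triangles). Rows are ordered by the difference between the drugs. In 18 of the 33 rows both circles lie at least 0.5 to the left of both triangles, and the control is nearer to the retinoic acid mean for 19 of the 24 genes without overlap.

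Dose and the reference gave more detail on the same 33 genes. Both EMD 82571 arrays lay below the control for 27 of them, against 5108 of 10411 genes. The median difference from the control was -0.61 in EMD50 and -0.56 in EMD150, against -0.04 over all genes for each. EMD150 lay below EMD50 for 23 of 33, against 5599 of 10411 genes. RA5 lay above the control for 30 (median 0.74) and RA56 for 14 (median -0.15), against 4907 and 4623 of the 10411 genes. The share in RA56 was thus near that over all genes, and the retinoic acid arrays did not share a direction against the control. RA56 lay below RA5 for 29 of the 33, against 4695 of the 10411 genes. The summed level of the list, in log2, was 14.04 in EMD50, 13.63 in EMD150, 15.93 in RA5, 15.01 in RA56 and 15.19 in the control. In whole embryo samples, fewer cells of a type and less RNA per cell cannot be told apart. The sources used here do not say whether the yolk sac was left on the embryos, and its part in these differences was not tested.

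Genes of the adult liver and of tissues around the embryo were compared in the same way. Of 38 measured adult hepatocyte genes 16 (42.1%) lay higher with retinoic acid and 2 (5.26%) higher with EMD 82571, with a median difference of -0.197. Over all 10411 genes the shares were 16.8% and 19.4%, the background for each list count below. Their summed log2 level was 12.77 in the control, 12.80 and 12.84 in EMD50 and EMD150, 13.27 in RA5 and 13.77 in RA56. Alb, serum albumin, read 9.53, 9.90, 10.19 and 12.00 in EMD50, EMD150, RA5 and RA56 and 8.59 in the control, and Hp, haptoglobin, read 8.35, 8.82, 8.92, 9.98 and 7.65. RA56 was thus the highest for both genes, whereas RA5 had the highest summed level of the yolk sac list. Of 8 defining hepatocyte markers 5 lay higher with retinoic acid (Alb, Hp, Cyp2e1, Hpd and Tdo2) and 3 overlapped (Cps1, Tat and Arg1). The gaps of Hp, Cyp2e1 and Hpd were small, at 0.11, 0.06 and 0.06. Limma's adjusted p of the 5 ran from 0.540 for Tdo2 to 0.933 for Cyp2e1. At another Alb probe set the drugs overlapped, with -1.16 for EMD 82571 minus retinoic acid. Tdo2, an enzyme of tryptophan breakdown, read 6.11 and 6.24 in EMD50 and EMD150, 7.79 and 6.63 in RA5 and RA56 and 6.27 in the control, so RA5 was the highest. Hpd, an enzyme of tyrosine breakdown, read 6.63 and 6.49, 6.69 and 7.30, and 6.26, with RA56 the highest. Akr1c14, a steroid dehydrogenase, read 5.97 and 5.93, 7.97 and 6.5, and 6.69. The urea cycle enzyme Cps1 and the aminotransferase Tat stayed at 6.06 to 6.41 and 5.98 to 6.30. In the maternal liver control Tdo2, Hpd, Cps1 and Tat read 12.68, 13.70, 13.15 and 11.45. Apoh, a plasma glycoprotein, did separate, at 6.61 and 6.51 in EMD50 and EMD150, 9.25 and 8.64 in RA5 and RA56 and 6.93 in the control, a difference of 2.38 ± 0.22 (adjusted p = 0.104). Ass1, an enzyme of arginine and urea synthesis, read 7.92 and 7.34, 10.52 and 9.21, and 10.13.

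Trophoblast and decidua genes gave 1 of 29 (3.45%) higher with retinoic acid and 5 (17.2%) higher with EMD 82571. The shares over all genes were 16.8% and 19.4%. Their summed log2 level ran from 11.43 in RA56 to 11.94 in RA5, so RA5 was the highest array here as in the yolk sac list. RA5 also had the highest Igfbp1, a product of decidua and liver, at 8.58 against 6.85 to 7.85 in the other 4 arrays. Prl8a2, a decidual prolactin relative, read 8.10 there against 6.61 to 6.86, but another probe set gave only -0.15 for EMD 82571 minus retinoic acid. The other measured markers did not stand out in RA5. Prl3b1 was highest in the control (6.73, against 6.07 in RA5). Prl4a1 read 7.66 in RA5 and 7.51 in the control, and Tpbpa 8.35 in RA5 and 8.34 in EMD150. Red cell genes gave 3 of 23 (13.0%) in each direction, with summed levels from 16.17 in RA5 to 16.54 in RA56. The parts of these other cell types in the differences were not tested.

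Tbx5, a transcription factor that patterns the heart and forelimb, was low on the array but tight within each drug. It read 6.35 in EMD50 and 6.45 in EMD150, 7.13 in RA5 and 7.21 in RA56, and 6.32 in the control. The EMD 82571 arrays lay beside the control and the retinoic acid arrays above all 3. The difference was 0.77 ± 0.11 (1.71-fold, adjusted p = 0.180), with a gap of 0.68. Its mean level was at percentile 20.5 of all probe sets. Other heart genes did not follow it: of 34 measured, 4 (11.8%) lay higher with retinoic acid and 10 (29.4%) higher with EMD 82571. Their median was 0.046, and the shares over all genes were 16.8% and 19.4%. Tnni3, cardiac troponin I, read 8.02 and 7.78 in EMD50 and EMD150, 7.52 and 7.41 in RA5 and RA56, and 8.26 in the control, while the heart and muscle regulator Mef2c lay the other way at 6.26, 6.63, 6.87 and 6.81. Of 20 limb genes, 2 lay higher with retinoic acid and 5 with EMD 82571. Prrx1, a homeobox gene of limb and face mesenchyme, read 6.82 and 7.0 with EMD 82571 and 6.34 in both retinoic acid arrays, with 7.10 in the control, and another probe set lay 0.51 higher with EMD 82571.

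Other genes higher with retinoic acid had the control nearer to EMD 82571 than to retinoic acid. Among the 51 probe sets with a gap of at least 1 the control lay nearer to the EMD 82571 mean for 27 and nearer to the retinoic acid mean for 24. These were not 2 distinct groups: the control lay between the drugs for 31 (60.8%). It lay on the retinoic acid side for 12 and on the EMD 82571 side for 8 (15.7%). Orm1, an acute phase plasma protein, read 7.12 and 7.10 in EMD50 and EMD150, 8.63 and 8.59 in RA5 and RA56, and 6.98 in the control, with the smallest spread of the leading genes (1.5 ± 0.14, adjusted p = 0.104). Tfrc, the receptor that brings iron into cells, read 7.90 and 8.18, 9.59 and 9.92, and 8.30, with a difference of 1.72 ± 0.19 (adjusted p = 0.154), and another probe set gave -0.70 for EMD 82571 minus retinoic acid. Fxr1, an RNA-binding protein of muscle and brain, read 6.59 and 6.82, 8.30 and 8.81, and 7.14 (1.85 ± 0.21, adjusted p = 0.154). RA56 had the higher value of the pair for Tfrc and Fxr1, and the control lay between the drugs for both.

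Extracellular matrix genes also lay higher with retinoic acid. Of 37 measured, 18 (48.6%) did so and 3 (8.11%) lay higher with EMD 82571, against 16.8% and 19.4% of all genes. The median was -0.180. The control was nearer to retinoic acid for 11 of the 18 and nearer to EMD 82571 for 7. Lum, the collagen-binding proteoglycan lumican, read 9.47 and 9.46 in EMD50 and EMD150, 11.24 and 10.79 in RA5 and RA56, and 10.30 in the control. Postn, periostin, read 8.0 and 8.27, 9.81 and 9.34, and 8.25. Col1a1, the main collagen of bone and skin, read 10.58 in both EMD 82571 arrays, 12.79 and 11.56 with retinoic acid and 11.61 in the control. The control was thus between the drugs for Lum, with EMD 82571 for Postn and with retinoic acid for Col1a1. The differences were 1.55 ± 0.20, 1.44 ± 0.21 and 1.59 ± 0.38, with adjusted p of 0.174, 0.186 and 0.319.

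Glycolysis and hypoxia genes lay higher with retinoic acid for 12 of 28 (42.9%) and higher with EMD 82571 for 1 (3.57%). The shares over all genes were 16.8% and 19.4%. The median of the list was -0.250 (-0.057 without RA5 and -0.480 without RA56). Slc2a3, a glucose transporter, read 8.33 and 8.47 in EMD50 and EMD150, 10.49 and 9.37 in RA5 and RA56, and 9.20 in the control. Splicing and RNA-binding genes gave 16 of 45 (35.6%) and 5 (11.1%). Their median of -0.111 was -0.326 without RA5 and 0.087 without RA56. Hnrnpu, a nuclear RNA-binding protein, read 8.44 and 8.49, 9.62 and 9.83, and 8.65. The 2 other Hnrnpu probe sets gave -0.10 and 0.01 for EMD 82571 minus retinoic acid. Cell cycle genes as a list were near the background, at 6 of 32 (18.8%) and 4 (12.5%). Mki67, the proliferation marker Ki-67, nevertheless read 9.92 and 10.11 with EMD 82571, 10.87 and 11.20 with retinoic acid, and 10.91 in the control. Rfc4, a clamp loader of DNA replication, read 9.09 and 9.38, 10.27 and 10.84, and 9.26. Id2, a target of BMP signals, read 10.04 and 10.08, 10.88 and 10.84, and 10.25, but another probe set lay 0.05 higher with EMD 82571.

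**Figure D3:**
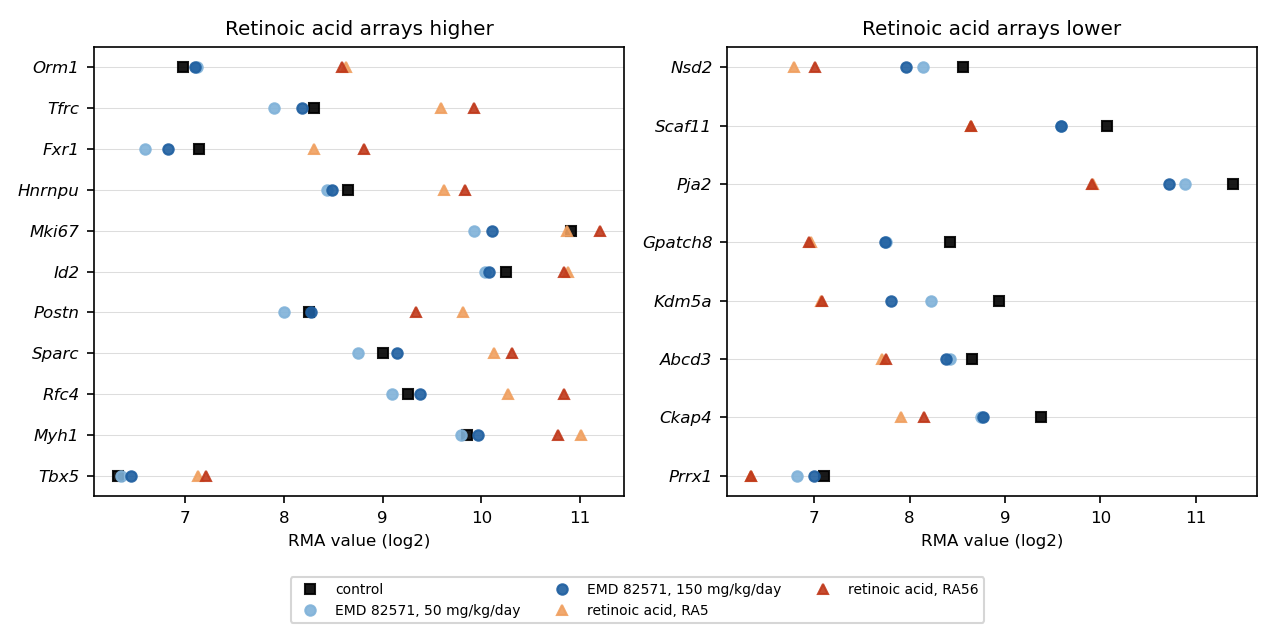
Log2 values in the 5 day 12 whole embryo arrays for genes outside the yolk sac list, with retinoic acid higher (left panel) and lower (right panel); symbols as given in the key. On the left the control lies with the EMD 82571 circles for Orm1, Postn and Tbx5 but with the triangles for Mki67, and on the right the control lies at or beyond the circles in all 8 rows. Each row is 1 probe set. On the right, other probe sets of Scaf11, Pja2, Gpatch8, Kdm5a and Ckap4 went the opposite way (-0.63 to -0.07 for EMD 82571 minus retinoic acid).

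Few named genes were clearly higher with EMD 82571. Of the 15 with the largest gaps in this direction, the control lay above both EMD 82571 arrays for 14. Nsd2, a histone methyltransferase, had the largest gap: it read 8.14 and 7.96 in EMD50 and EMD150, 6.79 and 7.01 in RA5 and RA56, and 8.56 in the control (1.15 ± 0.15, adjusted p = 0.174). Its 2 other probe sets differed by only 0.09 and 0.21. Gpatch8 read 7.75 and 7.74, 6.97 and 6.95, and 8.42, with -0.07 for EMD 82571 minus retinoic acid at another probe set. Kdm5a, a histone demethylase, read 8.22 and 7.81, 7.07 and 7.08, and 8.94, and the ubiquitin ligase Pja2 read 10.89 and 10.72, 9.92 and 9.91, and 11.39. The retinoic acid arrays were the lowest at each of these probe sets. For several of these genes the probe sets disagreed: other probe sets of Scaf11, Pja2, Kdm5a, Ckap4 and Wdfy1 gave -0.63 to -0.24 for EMD 82571 minus retinoic acid, so no direction is given for these 5 genes. Sox3, an early neural transcription factor, read 9.20 in both EMD 82571 arrays, 8.61 and 8.77 with retinoic acid and 9.41 in the control. The exception was Rgma, a guidance molecule of growing axons, at 9.60 in both EMD 82571 arrays, 9.0 and 9.15 with retinoic acid and 9.24 in the control, which was nearer to retinoic acid. Of the 11 probe sets with a gap of at least 0.5 in this direction (0.0693%), the control lay on the EMD 82571 side for 10.

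Both probe sets with a gap of at least 1 in this direction have no gene symbol in the tables used here. 1368867_at read 10.01 and 10.04 in EMD50 and EMD150, 7.98 and 7.45 in RA5 and RA56, and 10.79 in the control, and 1368866_at read 9.92 and 10.25, 8.61 and 8.17, and 10.46. Retinoic acid was the side that stood apart from the control in both. 1379497_at, also without a symbol, had the largest difference of all in the other direction (3.65 ± 0.75, adjusted p = 0.261), at 5.73 and 5.62, 10.62 and 8.03, and 8.80. These 3 were picked after their values were seen.

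Retinoic acid receptors, their targets and the enzymes that limit retinoic acid differed little between the drugs. Cyp26a1, the enzyme that breaks down retinoic acid and a classic target of it, read 6.88 and 6.72 in EMD50 and EMD150, 6.87 and 6.90 in RA5 and RA56 and 6.82 in the control. The groups overlapped. Rarb, a retinoic acid receptor and target, read 9.69 and 9.79, 9.52 and 9.67, and 9.75, and Dhrs3, which reduces retinal, read 7.87 and 7.97, 7.81 and 7.79, and 7.76. The differences of both were 0.14 ± 0.16 and 0.12 ± 0.14 in favour of EMD 82571. Crabp2, which carries retinoic acid to its receptor, read 10.91 and 11.02, 10.80 and 11.66, and 10.72, and only RA56 stood out. Of 24 measured receptors and response genes 1 (4.17%) lay higher with retinoic acid and 10 (41.7%) higher with EMD 82571. The shares over all genes were 16.8% and 19.4%. The median of the list was 0.117, and limma gave 0 of the 24 an unadjusted p under 0.05. Stra6, the receptor that takes up retinol from Rbp4, read 9.24 and 9.28 with EMD 82571, 9.06 and 9.09 with retinoic acid and 8.96 in the control. Of 23 retinoid carriers and enzymes, Rbp4 and Ttr among them, 6 (26.1%) lay higher with retinoic acid and 2 (8.70%) higher with EMD 82571, with a median of -0.007. Of 8 measured Hox genes 0 lay higher with retinoic acid and 2 (25.0%) higher with EMD 82571, Hoxa11 by 0.12 ± 0.14.

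Lists of calcium handling, neural, neural crest and somite genes leaned the other way by small amounts. The shares over all genes were 19.4% higher with EMD 82571 and 16.8% higher with retinoic acid. Calcium channels, pumps and binding proteins lay higher with EMD 82571 for 15 of 48 (31.2%) and with retinoic acid for 2 (4.17%), S100g among them. Their median was 0.114 (0.185 without RA5 and 0.029 without RA56). Neural crest and face genes gave 7 of 16 (43.8%) and 0, with a median of 0.133, somite and muscle genes 12 of 30 (40.0%) and 2 with a median of 0.116, and neural genes 10 of 34 (29.4%) and 4 with a median of 0.103. The neural median was -0.161 without RA5 and 0.307 without RA56, so its direction rested on RA5. The median absolute difference of single probe sets was 0.085 between the EMD 82571 doses and 0.245 between the retinoic acid arrays. It is an unlike measure, since signs can cancel in a list median. It does not show whether these medians exceed the spread between arrays. Snai1, a driver of cell migration, read 9.89 and 9.67 in EMD50 and EMD150, 9.38 and 9.46 in RA5 and RA56, and 9.81 in the control. Fabp7, a lipid-binding protein of neural progenitors, went against its list at 8.25, 8.79, 9.11 and 10.42, and most of that difference came from RA56. Myh1, annotated as a fast muscle myosin, went against the somite list at 9.79 and 9.96 with EMD 82571 and 11.01 and 10.78 with retinoic acid, and its 4 other probe sets gave -1.09 to -0.10 for EMD 82571 minus retinoic acid. That probe set did not follow muscle across the tissues: it read 11.57 to 11.99 in the 5 maternal livers of day 12 and 10.16 to 11.07 in the 4 embryo bone samples of day 20, where Acta1, skeletal muscle actin, read 6.32 to 7.41 and 14.34 to 14.53.

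In each of the other 10 lists at most 29.3% of the genes lay higher with retinoic acid, against 16.8% of all genes. At most 32.0% lay higher with EMD 82571, against 19.4% of all genes. Ribosomal protein genes gave 12 of 41 higher with retinoic acid and 8 higher with EMD 82571, and respiratory chain genes 9 and 2 of 64. Signalling genes gave 11 and 9 of 66, proteasome genes 6 and 3 of 33, and lipid synthesis genes 5 and 3 of 33. Endothelial genes gave 3 and 0 of 20, and stress genes 3 and 1 of 23. Leukocyte genes gave 0 and 7 of 24, skin and stomach genes 3 and 8 of 25, and pancreatic acinar genes 1 and 6 of 25. Their medians lay between -0.025 and 0.109.

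**Figure D4:**
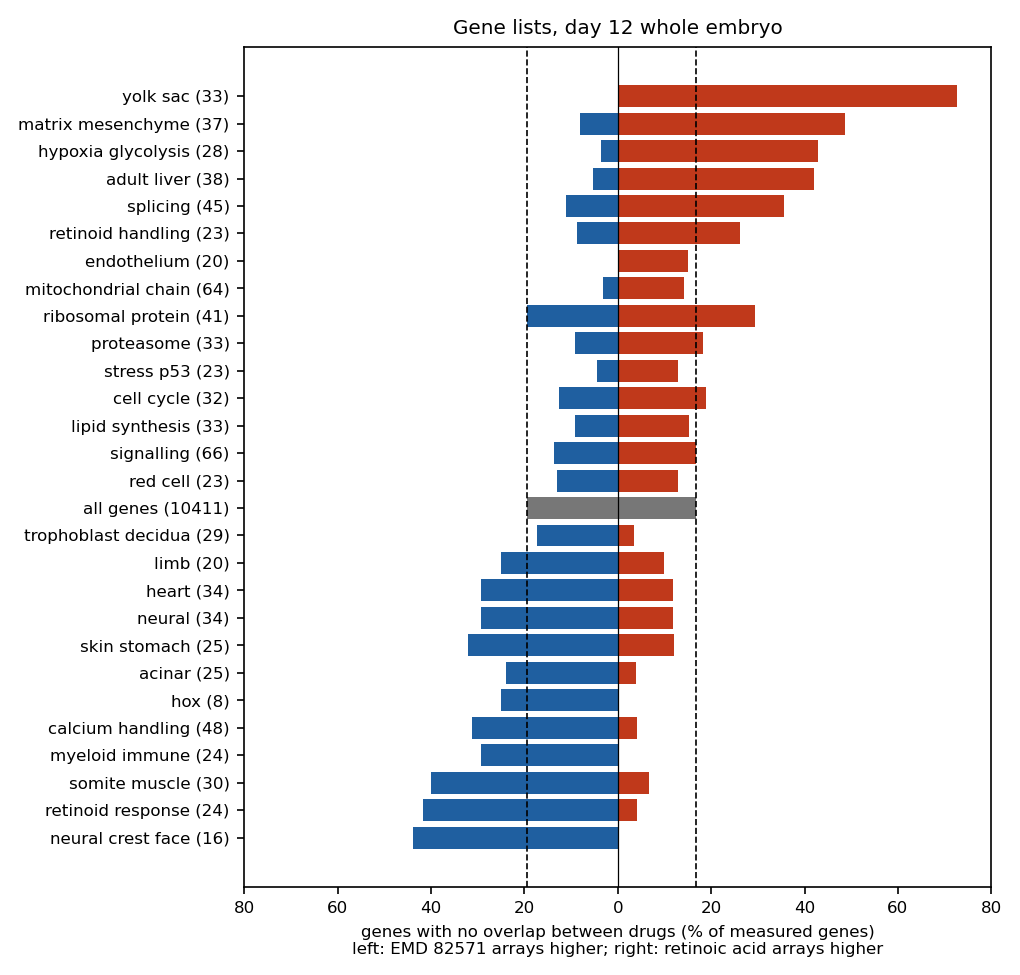
Share of measured genes in each list (number in brackets) with no overlap between the drugs, EMD 82571 higher to the left and retinoic acid higher to the right, with dashed lines at the shares over all 10411 genes (19.4% and 16.8%). Yolk sac genes reach 72.7% on the right and neural crest and face genes 43.8% on the left.

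The difference between the drugs was set against that in the livers of the dams on the same day, to ask at which genes the embryo and the dam differed. Limma's test of the difference between tissues, over the 4 whole embryo and 4 maternal liver arrays of both drugs, called 8 probe sets (0.0504%). Among the named genes these were Fga (-2.27 ± 0.24, adjusted p = 0.0308), Apoh (-2.40 ± 0.26, 0.0308), Tfrc (-2.26 ± 0.22, 0.0308) and Tbx5 (-0.87 ± 0.11, 0.046), each as the embryo difference of EMD 82571 minus retinoic acid less that in maternal liver. In the maternal livers Fga read 13.68 and 13.86 in EMD50 and EMD150 and 13.59 and 13.65 in RA5 and RA56, and Tbx5 5.42, 5.48, 5.28 and 5.42. Tbx5 was thus near the floor there (the lowest values on the embryo arrays were 4.88 to 4.90), where little difference or spread can show. The test pools the spread of both tissues, and Apoh read 13.86 to 13.93 in the 4 maternal livers of both drugs. The p-values of the 8 calls are therefore no measure of the embryo spread alone. Limma's fit of the 4 embryo arrays called 0 probe sets. With the label shared by embryo and maternal liver arrays as a block, limma called 0 of the 8. The yolk sac list had a median difference of -0.002 in maternal liver. For Rbp4, which read 13.37 to 13.50 in all 5 maternal livers, the difference between tissues was -2.99 ± 0.48 with limma's adjusted p = 0.133. The 8 calls were 0 without EMD50 and 0 without EMD150, and 807 and 428 without RA5 and RA56 of the embryo.

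Cyp26a1 gave the reverse picture. EMD 82571 minus retinoic acid was -3.43 in maternal liver and -0.09 in the embryo. The difference between tissues had limma's adjusted p = 0.151. For Apoa4 it was -2.29 in the embryo and -1.40 in maternal liver.

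**Figure D5:**
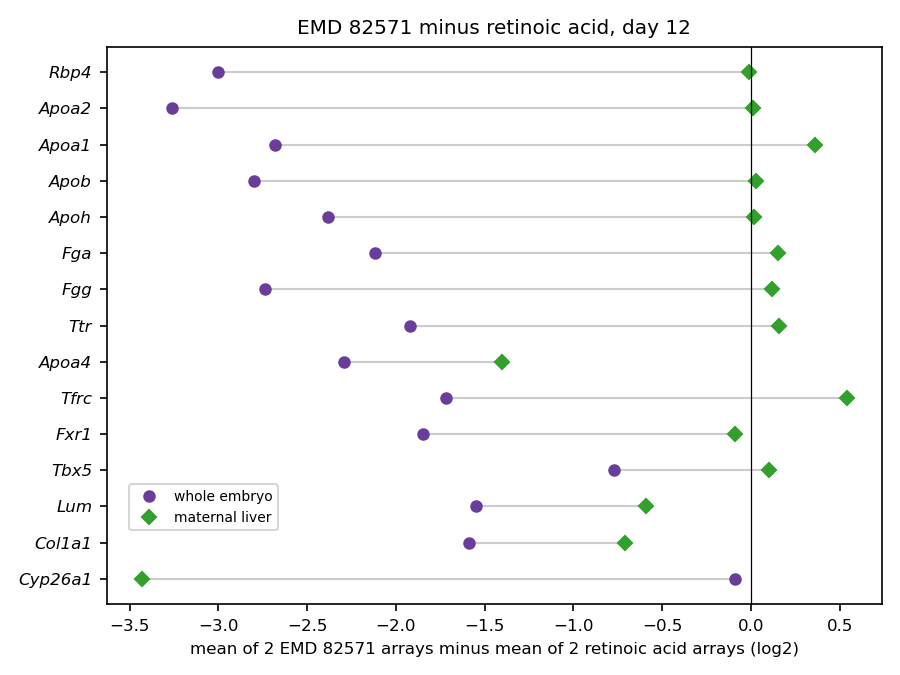
EMD 82571 mean minus retinoic acid mean, in log2 units, of 2 arrays each in day 12 whole embryo (circles) and day 12 maternal liver (diamonds) for 15 genes. The embryo circles of the carrier proteins lie between -3.26 and -1.92 and their diamonds between -0.01 and 0.36, except that of Apoa4 at -1.40. Cyp26a1 has its diamond at -3.43 and its circle near 0.

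Among 833 gene probe sets that ranged over at least 1 across the 5 embryo arrays, those most like Rbp4 by Pearson's r were Apoe (0.996), Ctsz (0.993), a lysosomal protease, and Apoa1 (0.992). Those most like Apoa1 were Afp (0.997), Apom (0.996) and Apoe (0.994). Tbx5 was most like Sat1 (0.994), an enzyme of polyamine breakdown, the translation factor gene Eif4e (0.994) and Orm1 (0.992). Each r describes 5 points that share their arrays.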

How the data were processed

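Total RNA of each sample was reverse transcribed with an oligo dT primer and labelled with biotin, per the labels' protocols, and 1 array was run per sample. Per the submitters' processing notes, RMA (robust multi-array averaging) gave the deposited log2 expression values. Its version and the joint or separate processing of arrays are not stated. The value table has 15923 rows, and 57 array controls were left out. Of the 15866 others, 12783 had 1 gene symbol, 312 several and 2771 none in the probe annotation table, and probe sets with several are not named. Promoter coordinates are those of the RefSeq table (GRCr8), since the labels name no build.

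EMD 82571 (EMD50 and EMD150) and retinoic acid (RA5 and RA56) were compared in R 4.3.3 by limma 3.58.1, with moderated variances (eBayes, trend on intensity), two-sided, with Benjamini-Hochberg adjustment over all probe sets and a call at 0.05. The fit left 2 residual degrees of freedom, and that with maternal liver 4, or 2 with the shared label as a block. Errors are SE of 2 arrays against 2. The fit of the 4 embryo arrays was also run on simulated independent normal values. That run checked only that added differences of known size were recovered on average. The 27 gene lists used 1 probe set per gene, the one with the highest mean. Named genes were up to 15 per direction by gap, up to 4 per list, the markers Rbp4, Tbx5 and Apoa1, the retinoid genes Cyp26a1, Rarb, Dhrs3 and Crabp2, up to 3 genes most like each marker, and cell type markers; others are said to be chosen by their values. The arrays, members and lists were chosen with earlier results of these data known. Alternatives were other sets of arrays, quantile normalization, no intensity trend, a filter on low values, other gaps leaving out each array and, added later, the label shared by embryo and maternal liver as a block.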

Additional observations from a re-analysis of the deposited data

Results flagged for a closer look

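The difference between EMD 82571 and retinoic acid was unequal in whole embryo and maternal liver of day 12 at 8 probe sets by limma's test of the difference between tissues, with adjusted p from 0.0308 to 0.046. That test pools the spread of both tissues, so its p is no measure of the embryo spread alone. The embryo difference of EMD 82571 minus retinoic acid, less that in maternal liver, was -2.27 for Fga, -2.40 for Apoh, -2.26 for Tfrc and -0.87 for Tbx5. Of the probe sets with no single gene symbol, it was 2.28 for 1368867_at, -1.59 for 1387050_s_at, -2.96 for 1370228_at and -0.69 for 1390300_at. In maternal liver 1387050_s_at read 13.71 to 13.73 and 1370228_at 14.70 to 14.75 in the 4 arrays of both drugs, against 5.90 to 7.55 and 8.54 to 12.09 in the embryo. No group here held enough arrays to look for single outlying ones.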

How the results depend on the processing

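The count of 0 called probe sets between the drugs stayed 0 without the intensity trend, after quantile normalization and with the control as a group of its own. It was 222 with the 10 arrays of day 12 (209 higher with retinoic acid, 13 with EMD 82571), 57 with all 22 arrays (51 and 6) and 15 among probe sets above the median level, and from 63 to 4424 with 1 array left out. The 53 probe sets with a gap of at least 1 became 315 at a gap of 0.5 and 8 at a gap of 2, and from 63 to 204 with 1 array left out, since fewer arrays make a gap easier. They were 46 after quantile normalization and 42 above the median level. The 8 calls between tissues were 1 without the intensity trend, 7 after quantile normalization, 10 above the median level and from 0 to 807 with 1 embryo array left out. Where 1 array of a drug was left out, the lone array was assumed to vary like the other drug's pair. Of the 132 named genes in this check, only Crabp2 reversed. Its EMD 82571 mean minus retinoic acid was -0.27, and from -0.69 to 0.160 with 1 array left out (0.160 without RA56). The check did not hold every cell type marker. Prl8a2 was outside it, with 8.10 in RA5 and 6.61 in RA56 on either side of EMD50 (6.86) and EMD150 (6.79). The direction of its difference thus turned on the retinoic acid array kept. The median difference of 15 of the 27 lists changed sign when 1 of the arrays was left out: 8 without RA5, 7 without RA56, 4 without EMD150 and 2 without EMD50. Without RA5 the medians of the cell cycle, stress, lipid synthesis, proteasome, splicing and neural crest lists were -0.135, -0.024, -0.181, -0.285, -0.326 and 0.185. Without RA56 those of the lipid synthesis, respiratory chain, calcium, skin and stomach, and matrix lists were 0.132, 0.166, 0.029, 0.007 and -0.264, and the matrix median was -0.242 without EMD50. With the mean of all probe sets of a gene the neural crest and matrix medians were 0.079 and -0.127. In an alternative chosen after seeing the data, the label shared by an embryo and a maternal liver array (EMD50, EMD150, RA5 or RA56) was a replicate block: of the 8 calls between tissues 0 were called, the smallest adjusted p being 0.231, and an unadjusted p under 0.05 was found for 844. The sources used here do not say that arrays of one label share dams, and the deviations of the arrays did not run together in both tissues (r = -0.065 for EMD 82571 and -0.140 for retinoic acid across probe sets). With the retinoic acid labels crossed 0 were called. No paired comparison of the drugs within the embryo was possible, since their arrays share no label. Precision is limited by 2 arrays per drug.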
